A study of Mus musculus with 6 samples.

Results

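The Schlafen family was examined in bone marrow-derived macrophages (BMDMs) of the mouse, before and after polarization and with or without the multikinase inhibitor regorafenib. The 7 genes described (Slfn1, Slfn2, Slfn3, Slfn4, Slfn5, Slfn8 and Slfn9) were chosen by name, as the protein-coding family members counted in these cells, out of 54446 genes in the count table. BMDMs were grown from the marrow of male BALB/c mice aged 6 to 8 weeks, in medium with 20% L929-conditioned medium for 7 days. They were left unpolarized (M0), polarized with IFN-γ at 20 ng/mL plus LPS at 50 ng/mL (M1), or polarized with IL4 at 20 ng/mL (M2), for 24 h in each case. Each state was sequenced as a control library, for which the treatment protocol names DMSO, and as a library of cells given regorafenib at 1 µM from 1 h before polarization. There were 6 libraries, with 1 library per condition. The number of mice behind each library, and whether marrow was pooled, was not given in the sources used here.

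Schlafen proteins share a conserved core domain, and mammals carry short, intermediate and long forms. The long forms add a region that resembles RNA and DNA helicases. Several members are induced by interferons, bind RNA or cleave transfer RNA, and restrict viruses or cell growth. In the mouse, the short members Slfn1 and Slfn2 are best known from T lymphocytes, where Slfn2 is needed for quiescence, and Slfn2 is also needed for monocytes. Slfn3 and Slfn4 are of intermediate length, and Slfn4 is known from myeloid cells during activation and differentiation. Slfn5, Slfn8 and Slfn9 are long forms.

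All 7 genes lie in 1 cluster on chromosome 11 (GRCm38, Gencode gene models). In order along the chromosome, Slfn5 (ENSMUSG00000054404.13) spans 82951349 to 82964840 on the plus strand. Slfn9 (ENSMUSG00000069793.12) spans 82978390 to 82991830 and Slfn8 (ENSMUSG00000035208.16) spans 83002158 to 83020810, both on the minus strand. Slfn2 (ENSMUSG00000072620.3) spans 83065112 to 83070678, Slfn1 (ENSMUSG00000078763.2) spans 83116849 to 83122670, Slfn4 (ENSMUSG00000000204.16) spans 83175186 to 83190216 and Slfn3 (ENSMUSG00000018986.10) spans 83191330 to 83215154, all on the plus strand. Slfn5os, an antisense gene, shares 559 bases (8.84%) of the Slfn5 exons and had 0 to 5 counts per library. The library kit marks strand, but which strand the authors counted was not given in the sources used here.

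The sequence around an annotated RefSeq start of each gene was searched for letters of the interferon response. RefSeq promoter windows on GRCm38.p6, running from 250 bases before each start to 50 bases after it, were found for 7 of the 7 genes, with 2 annotated starts for Slfn8, of which the upstream one is used for its positions. Each window was searched on both strands for GAAA, any 2 bases and GAAA, the core of the interferon-stimulated response element to which interferon regulatory factors bind. These letters were in 3.44% of all 32851 windows, in 9 of the 14 windowed genes of a list of 20 type I interferon-stimulated genes, and in 3 of the 7 Schlafen genes: Slfn5, Slfn8 and Slfn9. The 3 stretches that hold the match are shown 5′ to 3′ on the gene's strand, with the match in capitals. In Slfn8 and Slfn9 the letters are on the opposite strand and therefore read TTTC, any 2 bases, TTTC.
Slfn8, chr11:83020811-83020930, minus strand: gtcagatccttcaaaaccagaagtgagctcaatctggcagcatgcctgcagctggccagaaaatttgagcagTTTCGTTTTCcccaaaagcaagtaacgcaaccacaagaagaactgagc
Slfn9, chr11:82991831-82991950, minus strand: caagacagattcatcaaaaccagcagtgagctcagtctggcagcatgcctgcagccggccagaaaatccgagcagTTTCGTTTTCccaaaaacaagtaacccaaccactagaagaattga
Slfn5, chr11:82951922-82951981, plus strand: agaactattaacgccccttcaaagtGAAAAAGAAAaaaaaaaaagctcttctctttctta

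The match ended 39 bases before the RefSeq start in Slfn8, 36 bases before it in Slfn9 and 146 bases before it in Slfn5. For Slfn5 the RefSeq window runs from 82951852 to 82952151, inside the Gencode span given above. Its match therefore lies within that gene model. The 250 bases before the upstream start of Slfn8 and those of Slfn9 were 80.2% identical over an alignment of 262 columns, and the next most alike pair, Slfn3 and Slfn8, reached 53.4%. From the other annotated start of Slfn8 the identity with Slfn9 was 40.9%, so the likeness holds for the upstream start. The gamma-activated site (TTCNNNGAA, in 8.3% of windows) and an NF-kB site (GGG, any 2 bases and TTTCC, in 1.63%) were in 0 of the 7 genes. An AP-1 site (TGANTCA, in 7.81%) was in Slfn4, 34 to 28 bases before its start.

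The short and intermediate members were compared with each other, and no other set of 4 genes was. The longest run common to the upstream windows of Slfn1, Slfn2, Slfn3 and Slfn4 was 9 bases long and was in 0.843% of all windows (277 of 32851). It was not in the windows of Slfn5, Slfn8 or Slfn9, and is printed in capitals so that its position can be compared among the 4 genes.
Slfn1, chr11:83116721-83116780, plus strand: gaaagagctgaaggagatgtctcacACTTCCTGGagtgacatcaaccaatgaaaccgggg
Slfn2, chr11:83065032-83065091, plus strand: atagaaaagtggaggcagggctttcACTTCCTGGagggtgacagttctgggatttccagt
Slfn4, chr11:83175088-83175147, plus strand: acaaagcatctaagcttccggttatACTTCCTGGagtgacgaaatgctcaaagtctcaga
Slfn3, chr11:83191263-83191322, plus strand: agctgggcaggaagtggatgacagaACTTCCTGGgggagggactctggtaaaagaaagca

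A match of letters is a description of these windows, and binding was not measured.

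The libraries held 25359309 to 34898342 counts. All 8 macrophage markers were detected in every library, at a summed level of 20505 to 45807 CPM (counts scaled to the library's size, corrected by the trimmed mean of M-values). The T cell markers, which matter here because Slfn1 and Slfn2 are known from T cells, summed to 1.54 to 14.2 CPM, and Cd3e, Cd3d, Cd3g and Cd8a were at 0 in every library. The remaining sum was mainly Cd2, with 0 to 374 counts, and Lck, with 13 to 47 counts and its highest values in the M1 libraries. B cell markers reached at most 0.228 CPM and dendritic cell markers 0.243 to 4.69 CPM. Neutrophil markers summed to 84.8 to 158 CPM, with Ly6g at 0 throughout, and consisted mainly of the myeloid granule gene Mpo and of S100a8. In M1 against M0 control, S100a8 (1804 against 123 counts) and Camp (108 against 0) were called higher together with 5 Schlafen genes, as were Xcr1 (36 against 0) and Dcn (100 against 4) of the dendritic cell and fibroblast lists. Fibroblast markers summed to 3.19 CPM in M0 control and 10.2 CPM in M0 regorafenib, their lowest and highest values. In that comparison Col1a1 (114 against 37 counts), Col1a2 (188 against 46) and the T cell marker genes Cd2 (263 against 55) and Cd4 (22 against 4) were called higher with regorafenib. Of the macrophage markers, Cd14 (16464 against 31650 counts) and Fcgr1 (1184 against 3072) were called lower there and Mertk (1230 against 380) higher. The part of these genes in the Schlafen values was not tested.

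Comparisons between 2 libraries are given as the log2 ratio of scaled counts, with the 95% interval of the ratio from the exact binomial distribution of the 2 counts. With 1 library per condition these intervals cover counting error only and say nothing of the spread between cultures. A gene was called higher or lower between 2 libraries when the ratio was at least 2-fold and the interval left out 0. Ratios over 1 library each are descriptions of those libraries and carry no p-value. Adjusted p-values come from a single additive fit over all 6 libraries (edgeR's quasi-likelihood test, state plus drug, Benjamini-Hochberg adjustment over 14110 genes), in which the 2 libraries of a state stand for that state. Nothing in the labels says that the libraries came from separate cultures, so those p-values measure only the spread among these 6 libraries.

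Divided by exon length, Slfn2 was the most abundant Schlafen transcript in every library. By CPM, without the length, Slfn5 exceeded it in M1 control (705 against 678). Per length (RPKM, CPM divided by the exon length in kilobases), Slfn2 stood at 175 in M0 control, 184 in M0 regorafenib, 407 in M1 control, 419 in M1 regorafenib, 124 in M2 control and 165 in M2 regorafenib. That was 61.2% to 82.0% of the summed RPKM of the 7 genes. In M0 control the order after Slfn2 was Slfn5 at 36.5, Slfn9 at 32.8, Slfn8 at 18.3, Slfn3 at 8.14, Slfn4 at 1.62 and Slfn1 at 0.279 RPKM. In M1 control the order was different: Slfn5 stood at 111, Slfn8 at 70.1, Slfn1 at 40.4, Slfn4 at 29.7, Slfn3 at 4.32 and Slfn9 at 2.71 RPKM. The 7 genes summed to 273 RPKM in M0 control, 666 in M1 control and 167 in M2 control, and to 236, 606 and 202 RPKM in the matching regorafenib libraries. Slfn9 supplied 12% of the family's summed RPKM in M0 control, 5.90% in M2 control and 0.406% in M1 control. In these bulk libraries, fewer cells of a type and less RNA per cell cannot be told apart.

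**Figure D1:**
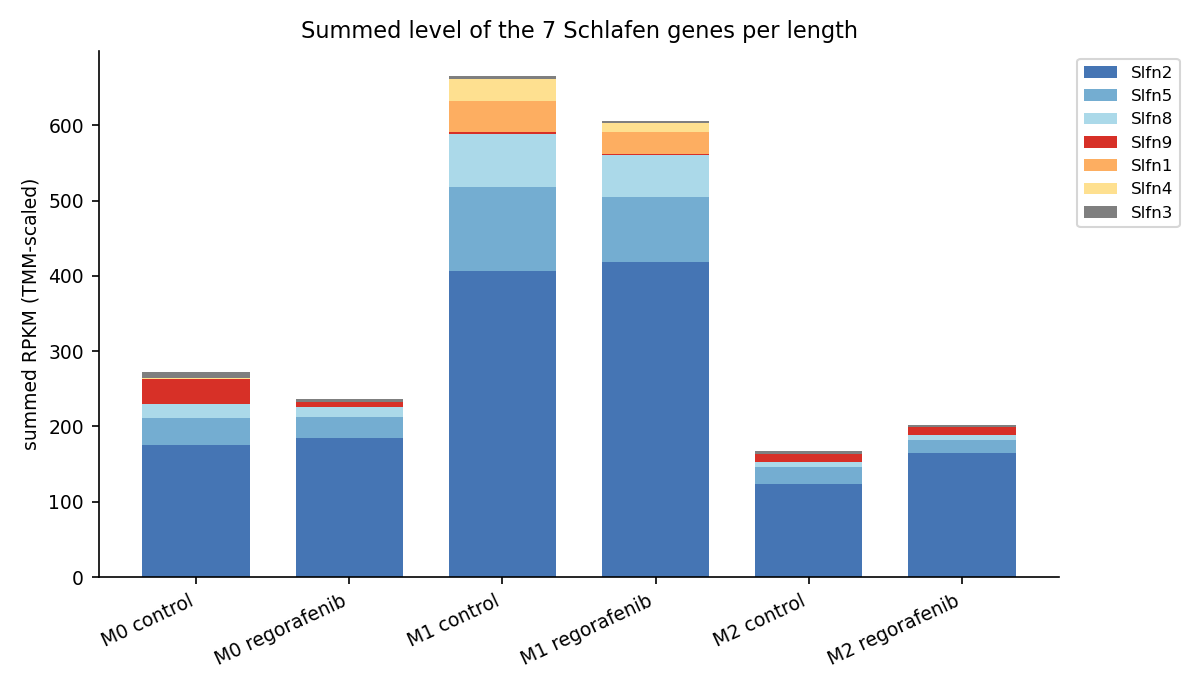
Summed level of the 7 Schlafen genes in each of the 6 libraries (RPKM, linear axis from 0), divided by gene; 1 library per bar, so there are no error bars. Slfn2 makes up 61.2% to 82.0% of each bar, and the M1 bars (666 and 606 RPKM) stand above the M0 and M2 bars (167 to 273 RPKM).

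Polarization to M1 divided the family. Slfn1, Slfn2, Slfn4, Slfn5 and Slfn8 were called higher in M1 than in M0, Slfn9 was called lower, and Slfn3 was not called, in the control libraries and again in the regorafenib libraries. Among the 14917 genes that reached 10 counts in any library, 16.1% were called higher and 18% lower between the control libraries, against 5 and 1 of the 7 Schlafen genes. Between the regorafenib libraries, 15.4% of all genes were called higher and 19.4% lower, against the same 5 and 1 genes. The median log2 ratio of the family was 1.61 in control and 1.57 with regorafenib, beside -0.05 and -0.09 for all genes. In the additive fit the same 5 genes rose and Slfn9 fell at an adjusted p under 0.05 (edgeR quasi-likelihood test, Benjamini-Hochberg), as 17.2% and 19.4% of all genes did. The scaling of libraries bore on these counts: with total counts in place of the trimmed mean, the median of all genes moved by -0.44 in control and -0.41 with regorafenib (log2), and the share of M1 to M0 calls that were higher went from 47.3% to 29.3% in control and from 44.2% to 27.7% with regorafenib.

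Slfn1, a short member known as a growth regulator of T cells, went from near absence to clear expression. It had 16 counts in M0 control, 2 in M0 regorafenib, 1946 in M1 control, 1317 in M1 regorafenib, 1 in M2 control and 4 in M2 regorafenib. The M1 libraries, at 75.3 and 54.6 CPM, lay above the other 4, at 0.0274 to 0.521 CPM, with no overlap. The M1 to M0 log2 ratio was 7.18 (6.47 to 7.99) in control, or 145-fold, and 9.81 (7.96 to 12.86) with regorafenib, which rests on 2 counts in M0. The additive fit gave 7.89 (SE 0.67, edgeR adjusted p = 0.000902). Of the T cell markers, Lck was also called higher in M1 than in M0 control (47 against 16 counts) and Cd2 lower (0 against 55), and their part in the Slfn1 values was not tested.

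Slfn4, the intermediate member known from activated myeloid cells, was also highest in M1, from a higher base. It had 197 counts in M0 control, 23 in M0 regorafenib, 3037 in M1 control, 1075 in M1 regorafenib, 36 in M2 control and 15 in M2 regorafenib. M1 libraries stood at 118 and 44.6 CPM, M0 at 6.41 and 0.698 CPM, and M2 at 0.986 and 0.536 CPM, so that M0 control alone among the other libraries was above 1 CPM. The M1 to M0 log2 ratio was 4.20 (3.99 to 4.41) in control, or 18.3-fold, and 6.0 (5.41 to 6.66) with regorafenib, and the additive fit gave 4.87 (SE 0.53, edgeR adjusted p = 0.00179).

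The long members Slfn5 and Slfn8 changed less and from a higher base. Slfn5 had 7098 counts in M0 control, 6080 in M0 regorafenib, 18215 in M1 control, 13156 in M1 regorafenib, 5174 in M2 control and 2929 in M2 regorafenib. It was 3.05-fold higher in M1 than in M0 control (log2 ratio 1.61, 1.57 to 1.65) and rose by 1.59 on the log2 scale in the additive fit (SE 0.17, edgeR adjusted p = 0.00164). Slfn8 had 2300, 1741, 7414, 5451, 1019 and 851 counts in the same order of libraries. Its M1 to M0 log2 ratio was 1.94 (1.87 to 2.01) in control, or 3.83-fold, and 2.01 in the additive fit (SE 0.21, edgeR adjusted p = 0.00150). For both genes the libraries ran in the order M1, M0, M2, and the states did not overlap.

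Slfn2, the short member needed for quiescence of T cells and for monocytes, showed the smallest increase of the 5 genes called higher in M1. It had 8961 counts in M0 control, 10098 in M0 regorafenib, 17509 in M1 control, 16792 in M1 regorafenib, 7537 in M2 control and 7697 in M2 regorafenib. The M1 libraries, at 678 and 697 CPM, exceeded the other 4, at 206 to 306 CPM. The M1 to M0 log2 ratio was 1.22 (1.18 to 1.25) in control and 1.19 (1.15 to 1.22) with regorafenib, and the additive fit gave 1.20 (SE 0.19, edgeR adjusted p = 0.00544). With libraries scaled by total counts those ratios were 0.78 and 0.77, under the 2-fold limit.

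Slfn9, a long member, was lower in M1, in the direction opposite to the 5 genes called higher. It had 6006 counts in M0 control, 1318 in M0 regorafenib, 417 in M1 control, 291 in M1 regorafenib, 2144 in M2 control and 1566 in M2 regorafenib. M0 control stood far above the rest at 196 CPM, M0 regorafenib and both M2 libraries lay at 40 to 58.7 CPM, and the M1 libraries were lowest at 16.1 and 12.1 CPM. The M1 to M0 log2 ratio was -3.60 (-3.75 to -3.46) in control, 12.1-fold lower, and -1.73 (-1.92 to -1.54) with regorafenib. Slfn9 fell by 2.81 on the log2 scale in the additive fit (SE 0.56, edgeR adjusted p = 0.0122). Slfn8 and Slfn9 are neighbouring genes whose upstream bases, printed above, were the most alike of the family when the upstream Slfn8 start was used, and hold the same response element match, and their M1 to M0 ratios had opposite signs between the control libraries and between the regorafenib libraries.

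Slfn3, an intermediate member, had 853 counts in M0 control, 331 in M0 regorafenib, 381 in M1 control, 262 in M1 regorafenib, 442 in M2 control and 257 in M2 regorafenib. M0 control, at 27.8 CPM, was above the other 5 libraries, which lay between 9.19 and 14.7 CPM. Its M1 to M0 log2 ratio was -0.91 (-1.09 to -0.74) in control and 0.11 (-0.12 to 0.35) with regorafenib, and neither was called. With total counts the control ratio was -1.35 and was called lower, and the regorafenib ratio turned to -0.30. The additive fit gave -0.44 (SE 0.32, edgeR adjusted p = 0.337).

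**Figure D2:**
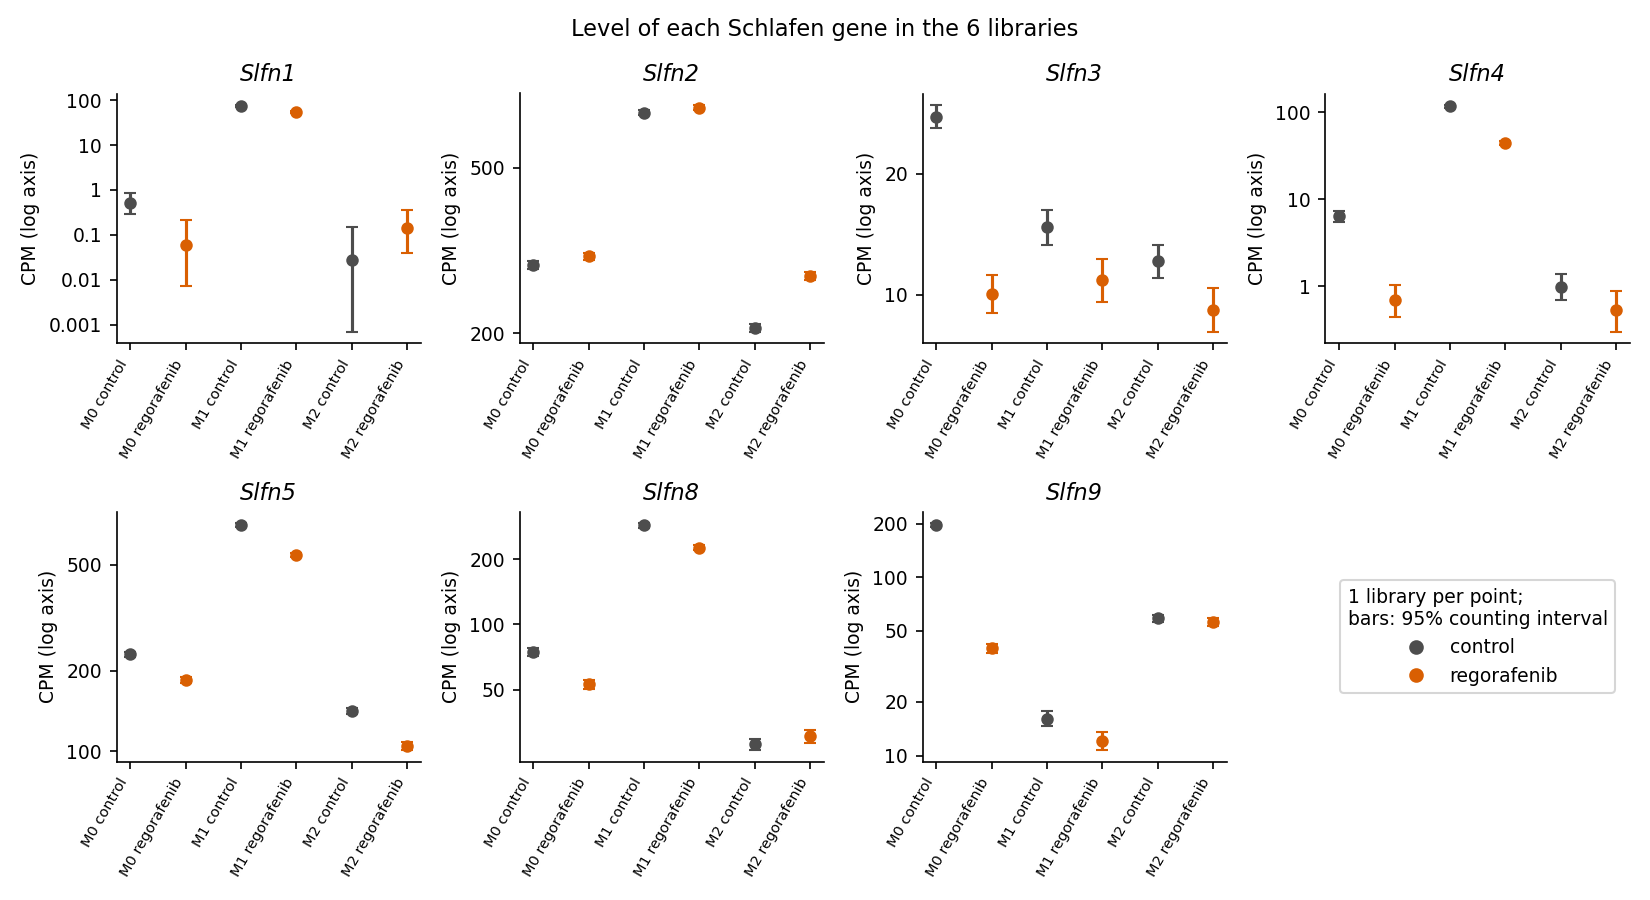
Level of each Schlafen gene (CPM, log axis) in the 6 libraries, 1 point per library, with bars for the 95% interval of the count; grey points are control and orange points regorafenib. Slfn1, Slfn2, Slfn4, Slfn5 and Slfn8 are highest in the M1 pair, and Slfn3 and Slfn9 are highest in M0 control (27.8 and 196 CPM).

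Polarization to M2 was accompanied by lower Schlafen levels in the control libraries. Slfn1, Slfn3, Slfn4, Slfn8 and Slfn9 were called lower in M2 than in M0 control, 5 of 7 genes, where 6.64% of all genes were called lower and 3.55% higher. The log2 ratios were -1.20 (-1.37 to -1.03) for Slfn3, -2.70 (-3.26 to -2.18) for Slfn4, -1.42 (-1.53 to -1.32) for Slfn8 and -1.74 (-1.81 to -1.66) for Slfn9. Slfn1 had 16 counts against 1, a log2 ratio of -4.25 (-9.64 to -1.56), which became -0.57 when 1 CPM was added to both values. Slfn2 and Slfn5 were lower by less than 2-fold, at -0.50 (-0.54 to -0.45) and -0.71 (-0.76 to -0.65). In the same comparison the marker genes S100a8 (68 against 123 counts), Cd14 (9888 against 31650) and Fcgr1 (710 against 3072) were called lower and Cd2 (168 against 55) and Adgre1 (46339 against 19492) higher, and their part in the Schlafen values was not tested.

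Between the regorafenib libraries of M2 and M0, 0 of the 7 genes were called, where 3.76% of all genes were called higher and 3.81% lower. Slfn5 and Slfn8 were still lower, at log2 ratios of -0.82 (-0.88 to -0.75) and -0.80 (-0.92 to -0.68). Slfn9 had the opposite sign to the control pair, at 0.49 (0.38 to 0.59). In the additive fit 0 of the 7 genes passed for M2 against M0 by edgeR's quasi-likelihood test with Benjamini-Hochberg adjustment, where 0.22% of all genes did. At an unadjusted p under 0.05, which 9.31% of all genes reached in either direction, Slfn4, Slfn5 and Slfn8 were lower in that fit. With DESeq2, Slfn5 (log2 fold change -0.75, adjusted p = 0.00565) and Slfn8 (-1.10, adjusted p = 0.00228) passed, where 1.22% of all genes were lower. In edgeR without a filter on low counts, where 0.662% were lower, Slfn4 and Slfn8 passed.

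Against M2, the M1 libraries showed the same division as against M0. Slfn1, Slfn2, Slfn4, Slfn5 and Slfn8 were called higher and Slfn9 lower in control libraries, where 16.8% of all genes were called higher and 18.2% lower, and in regorafenib libraries, where the shares were 15.1% and 18%. The control log2 ratios were 6.90 (6.42 to 7.41) for Slfn4, 3.36 (3.27 to 3.46) for Slfn8, 2.31 (2.27 to 2.36) for Slfn5, 1.71 (1.68 to 1.75) for Slfn2 and -1.86 (-2.02 to -1.71) for Slfn9. For Slfn1, 1946 counts stood against 1 count, a log2 ratio of 11.43 with an interval of 8.95 to 16.73. Slfn3 was at 0.28 (0.08 to 0.49) and was not called. Between these control libraries the marker genes S100a8 (1804 against 68 counts), Camp (108 against 0), Xcr1 (36 against 1), Dcn (100 against 3) and Lck (47 against 24) were also called higher and Cd2 (0 against 168) lower, and their part in the Schlafen values was not tested. All but Slfn3 passed in the additive fit, with edgeR adjusted p-values from 0.000458 for Slfn8 to 0.0279 for Slfn9 (quasi-likelihood test, Benjamini-Hochberg), where 17.8% of all genes rose and 19.6% fell, and Slfn3 had an adjusted p = 0.566.

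Regorafenib was compared with control within each state. In M0, Slfn1, Slfn3, Slfn4 and Slfn9 were called lower with regorafenib, 4 of 7 genes, where 9.59% of all genes were called lower and 7.81% higher. In M1, Slfn4 was called lower, 1 of 7 genes, where 2.3% of all genes were lower and 1.17% higher. In M2, 0 of the 7 genes were called, where 5.03% were higher and 3.83% lower. The median log2 ratio of the family was -1.47 in M0, -0.42 in M1 and -0.07 in M2, beside 0.00, -0.02 and -0.02 for all genes. The M0 control library is shared by the M0 regorafenib comparison and the polarization comparisons in control cells, so a value particular to that library would enter all of them.

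Slfn4 had the lowest regorafenib to control ratio among the 7 genes in M0 and in M1, although in M0 its interval overlapped that of Slfn1, and with 1 CPM added to both values its M0 ratio was -2.13, beside -2.26 for Slfn9. With 23 counts against 197 in M0 the log2 ratio was -3.20 (-3.89 to -2.57), 9.19-fold lower, and with 1075 against 3037 in M1 it was -1.40 (-1.50 to -1.30), 2.64-fold lower. In M2, 15 counts stood against 36, and the ratio of -0.88 had an interval from -1.85 to 0.03. Slfn4 was lower in 3 of 3 states, and the additive fit gave -1.84 (SE 0.43, edgeR adjusted p = 0.304). In M1 the marker genes S100a8 (489 against 1804 counts), Dcn (39 against 100) and Fcgr1 (1715 against 4314) were also called lower with regorafenib and Xcr1 (102 against 36) higher, and their part in the Slfn4 value was not tested. Slfn4 passed for regorafenib across states with DESeq2 (-1.83, adjusted p = 0.00415), where 1.22% of all genes were lower, and in edgeR without a filter on low counts (-1.84, adjusted p = 0.0114), where 0.714% were lower.

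Slfn9 and Slfn3 differed between regorafenib and control mainly in unpolarized cells. For Slfn9 the log2 ratio was -2.29 (-2.38 to -2.20) in M0, 4.89-fold lower, but -0.42 (-0.64 to -0.20) in M1 and -0.07 (-0.16 to 0.03) in M2. By counting error alone, the M0 ratio of Slfn9 was below that in M1 by 1.87 (1.64 to 2.10) and below that in M2 by 2.22 (2.09 to 2.35). For Slfn3 the ratio was -1.47 (-1.66 to -1.28) in M0, -0.44 (-0.67 to -0.21) in M1 and -0.40 (-0.63 to -0.17) in M2, and the M0 ratio was lower than that in M1 by 1.03 (0.74 to 1.32). The M0 ratio of Slfn4 was likewise below that in M1, by 1.80 (1.17 to 2.43), and below that in M2, by 2.32 (1.25 to 3.39). Whether these differences between states exceed the spread between cultures cannot be tested with 1 library each.

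Slfn1 in M0 had 2 counts against 16, a log2 ratio of -3.10 (-6.27 to -1.01) that became -0.52 when 1 CPM was added to both values. In M1, where Slfn1 was well counted, the ratio was -0.46 (-0.56 to -0.36), and in M2 the 4 counts against 1 gave no usable direction (2.38, -0.95 to 8.01).

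The long members Slfn5 and Slfn8 and the abundant Slfn2 differed by less than 2-fold with regorafenib in every state. Slfn5 stood at -0.33 (-0.37 to -0.28) in M0, -0.37 (-0.40 to -0.34) in M1 and -0.44 (-0.50 to -0.37) in M2, lower in 3 of 3 states. Slfn8 stood at -0.50 (-0.59 to -0.41) in M0, -0.34 (-0.39 to -0.29) in M1 and 0.12 (-0.01 to 0.26) in M2. Slfn2 stood at 0.07 (0.03 to 0.11) in M0, 0.04 (0.01 to 0.07) in M1 and 0.41 (0.37 to 0.46) in M2, and was the only member with a ratio above 0 in all 3 states.

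Across states, 0 of the 7 genes and 0 of 14110 genes passed for regorafenib by edgeR's quasi-likelihood test with Benjamini-Hochberg adjustment, with 1654 genes (11.7%) at an unadjusted p under 0.05 and 296 genes passing in DESeq2. In that fit Slfn3 stood at -0.77 (edgeR adjusted p = 0.404), Slfn5 at -0.38 (0.404), Slfn9 at -0.92 (0.443), Slfn8 at -0.24 (0.518), Slfn1 at -0.68 (0.573) and Slfn2 at 0.17 (0.601).

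**Figure D3:**
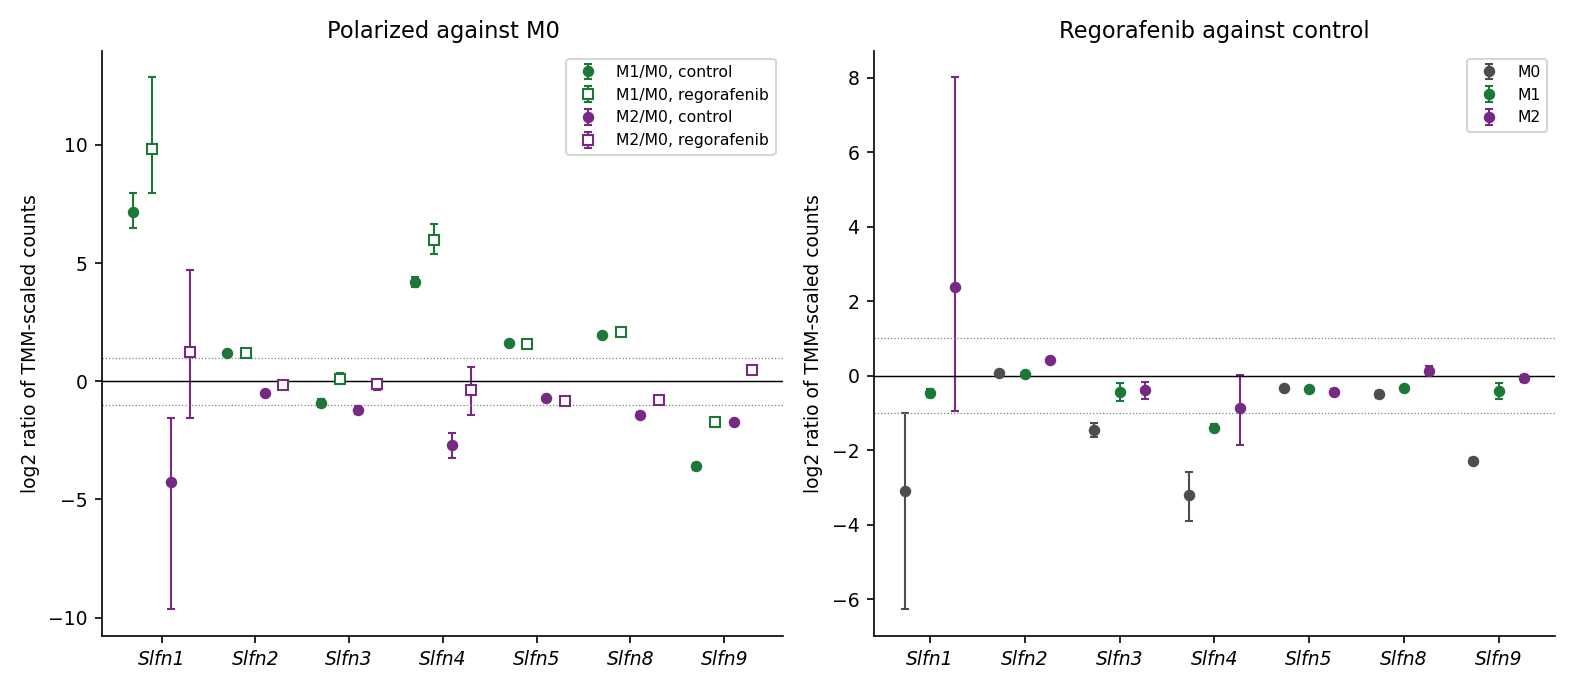
Log2 ratio of each Schlafen gene in the comparisons of 2 libraries, with bars for the 95% counting interval a line at 0 and dotted lines at 2-fold; on the left circles are control pairs and squares regorafenib pairs, and on the right colours give the state. Slfn1, Slfn3, Slfn4 and Slfn9 lie below the lower dotted line with regorafenib in M0 (-1.47 to -3.20), and Slfn9 lies on the opposite side of 0 from Slfn1, Slfn2, Slfn4, Slfn5 and Slfn8 in the M1 comparisons.

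The type I interferon-stimulated genes, a list of 20 that includes Isg15, Rsad2 and Ifit1, were read beside the family because interferons induce Schlafen genes. Their summed level was 1892 CPM in M0 control, 635 in M0 regorafenib, 8449 in M1 control, 7493 in M1 regorafenib, 685 in M2 control and 461 in M2 regorafenib. In M1 against M0 control, 19 of 20 were called higher (median log2 ratio 2.29), where 16.1% of all genes were, and 20 of 20 rose in the additive fit (edgeR adjusted p under 0.05). In M2 against M0 control, 16 of 20 were called lower (median -1.68), where 6.64% of all genes were. With regorafenib, 17 of 20 were called lower in M0 (median -1.81), 0 of 20 in M1 (median -0.14) and 5 of 20 in M2 (median -0.78), where 9.59%, 2.3% and 3.83% of all genes were lower.

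Slfn4 and Isg15, the ubiquitin-like interferon-induced modifier, could be compared directly. Isg15 had 1245 counts in M0 control, 173 in M0 regorafenib, 14512 in M1 control, 13019 in M1 regorafenib, 272 in M2 control and 146 in M2 regorafenib. Its regorafenib log2 ratio was -2.95 (-3.19 to -2.72) in M0, near that of Slfn4, but -0.06 (-0.09 to -0.02) in M1, where that of Slfn4 was -1.40. Rsad2, an antiviral enzyme, had ratios of -2.77 (-2.93 to -2.60) in M0, -0.80 (-0.84 to -0.76) in M1 and -1.46 (-1.70 to -1.24) in M2. Irf7, an interferon regulatory factor, stood at -1.89 (-1.97 to -1.82) in M0, -0.08 (-0.10 to -0.06) in M1 and -0.60 (-0.70 to -0.51) in M2.

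The cell cycle genes, a list of 14 that includes Mki67 and Top2a, were read beside Slfn9. Their summed level was 3179 CPM in M0 control, 763 in M0 regorafenib, 234 in M1 control, 245 in M1 regorafenib, 1400 in M2 control and 1267 in M2 regorafenib. M0 control was the highest and the M1 pair the lowest, as for Slfn9. In M1 against M0, 14 of 14 were called lower in control (median -5.58) and 12 of 14 with regorafenib (median -3.25), where 18% and 19.4% of all genes were lower. With regorafenib, 14 of 14 were called lower in M0 (median -2.04), where 9.59% of all genes were, and 0 of 14 were called in M1 or M2. The part of cell division, of cell number or of any 1 library in the Slfn9 values was not tested.

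**Figure D4:**
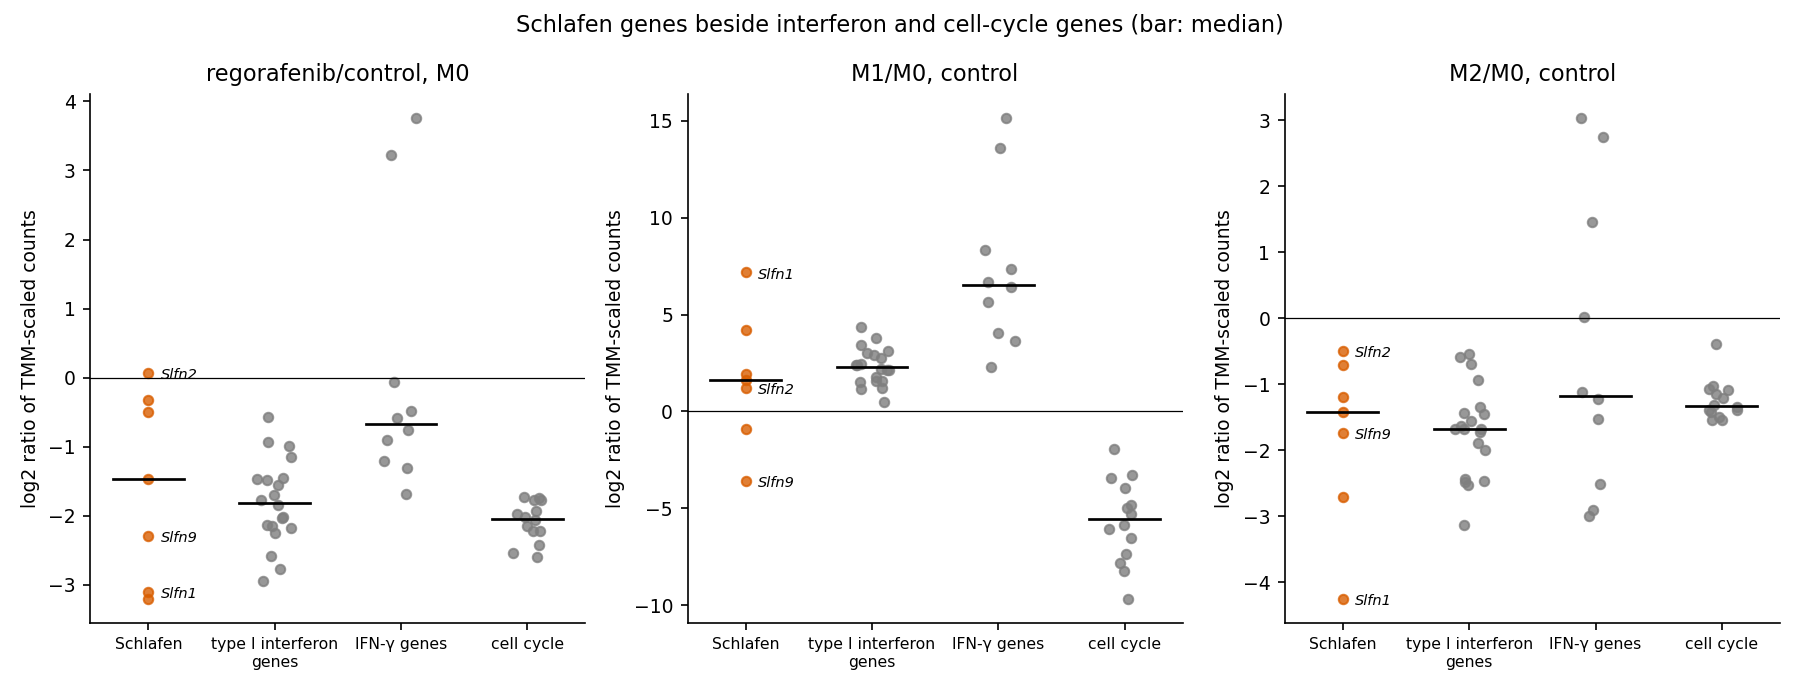
Log2 ratios of the genes of each list and of the 7 Schlafen genes, 1 point per gene, with the median of each list as a line. With regorafenib in M0 the medians of the cell cycle list and the interferon-stimulated list are -2.04 and -1.81, and that of the Schlafen family is -1.47.

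For each member, the genes with the most similar profile over the 6 libraries were taken by the Euclidean distance between centred log2 CPM values, among the 11313 genes that reached 100 counts in any library. For Slfn9 they were Pask, a metabolic sensor kinase (distance 0.27), Timeless, which protects replication forks (0.30), and Pttg1, which encodes securin (0.35). For Slfn4 they were Isg15 (1.05), the interferon-inducible Ifi214 (1.22) and Olfr56 (1.40). For Slfn1 they were Gm4951 (1.55), the interferon-induced chemokine gene Cxcl11 (1.71) and Acod1, which makes itaconate (1.75). The Slfn1 distances depend on its 1 to 16 counts outside M1, and Cxcl11 had 0 counts in M0 regorafenib and in M2 control. For Slfn5 they were Slc11a1, a metal transporter of phagosomes (0.18), Rnf24 (0.21) and Serpini1 (0.39). For Slfn8 they included Smox, a spermine oxidase (0.10), and Rims3 (0.42). For Slfn2 they were Lrch1 (0.17), the signalling adaptor gene Traf2 (0.19) and Atf6b (0.23), and for Slfn3 Dynlt1f (0.37), the replication gene Donson (0.46) and Net1 (0.47).

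Among the members themselves, Slfn5 and Slfn8 were the most similar pair, at a distance of 0.89, followed by Slfn2 and Slfn5 at 1.09. Slfn9 was nearest to Slfn3, at 2.71. Slfn8 and Slfn9, the pair with the most similar upstream bases from the upstream Slfn8 start, were 5.85 apart. Slfn1 and Slfn9 were farthest, at 13.5, a value that depends on the low Slfn1 counts outside M1. These distances are over 6 libraries, with 1 library per condition, and are a description.

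The remaining family sequences were weakly counted or shared sequence with the members. The pseudogene Slfn10-ps, which lies between Slfn8 and Slfn2, had 831 counts in M0 control, 550 in M0 regorafenib, 1641 in M1 control, 1246 in M1 regorafenib, 656 in M2 control and 336 in M2 regorafenib. It was called higher in M1 than in M0 control (log2 ratio 1.23, 1.11 to 1.35), the direction of Slfn8 and the reverse of Slfn9. Slfn14 had 0 counts in every library and Slfnl1 0 to 2. Of all runs of 100 bases in the annotated transcripts, 3.39% of those of Slfn8, 3.71% of those of Slfn9 and 7.84% of those of Slfn10-ps were also found in another gene, and how many read pairs this affected was not tested. The shares were 0% for Slfn1, 0.128% for Slfn2, 0.271% for Slfn4, 2.92% for Slfn3 and 6.40% for Slfn5, the last mostly with Slfn5os.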

How the data were processed

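Per the labels and methods, the authors extracted total RNA, made stranded mRNA libraries, trimmed reads with cutadapt 2.4, aligned them with STAR 2.7.2a to GRCm38 and deposited raw gene counts of the 6 libraries. BALB/c reads were aligned to a C57BL/6J reference, and the effect of that was not tested. Here counts were used as deposited. Of 54446 gene IDs, 53229 were named from Gencode M21 with the version, 1180 without it, and 37 stayed unnamed. Libraries were scaled by the trimmed mean of M-values (factors 0.820 to 1.12). Between 2 libraries, the 14917 genes reaching 10 counts in any library were compared with exact binomial 95% intervals, a count of 0 was replaced by 0.5, and no fold was given where both libraries had 3 counts or fewer. The NOISeq probabilities of the methods, which simulate replicates, were not used. The additive fit used edgeR 4.0.16 (glmQLFit, filterByExpr, 2 residual degrees of freedom, adjusted p under 0.05) in R 4.3.3. RPKM used exon-union lengths and the same scaling. Scripts ran in Python 3.11.15 and were tested on simulated data.

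The genes named were the 7 members, their 3 relatives (Slfn14, Slfn10-ps and Slfnl1), genes of the lists discussed, and the 3 nearest profiles of each member, of which 1 for Slfn8 is not reported here. The members, the lists (interferon-stimulated, IFN-γ-induced, interferon signalling, LPS-induced, cell cycle and cell type markers) and the tests were chosen with earlier results of these data known. Alternatives were DESeq2 1.42.0 size factors and test, RLE factors, total counts, 1 CPM added to both values, no filter on low counts, each state left out, and Pearson correlation for profiles.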

Additional observations from a re-analysis of the deposited data

Results flagged for a closer look

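Slfn9 had opposite directions in M2 against M0 on the 2 sides of the drug comparison. The log2 ratio was -1.74 between the control libraries and 0.49 between the regorafenib libraries, from 2144 against 6006 and 1566 against 1318 counts. With 1 library per condition the difference between these ratios was not tested against replicates. In the same comparisons 13 of the 14 cell cycle genes were called lower between control libraries (median -1.33), where 6.64% of all genes were. Between regorafenib libraries 1 was called higher and 0 lower (median 0.67), where 3.76% and 3.81% of all genes were. Whether the 2 patterns are related was not tested.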

How the results depend on the processing

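With 1 library per condition, no call between 2 libraries has a replicate check, and Slfn1 outside M1 rests on 1 to 16 counts. All 63 ratios of the 7 members kept their direction and call with DESeq2 size factors. With total counts 55 did, and 4 reversed: Slfn9 in regorafenib against control in M2 (0.0074), and Slfn3 in M1 against M2 control (-0.066), M1 against M0 with regorafenib (-0.30) and M1 against M2 with regorafenib (-0.14). Slfn2 fell under 2-fold there in M1 against M2 with regorafenib (0.95). The share of calls that were higher in M1 against M2 went from 48.0% to 33.6% in control and from 45.7% to 29.8% with regorafenib. Adding 1 CPM reduced the genes called from 2596 to 1495 for regorafenib in M0, from 518 to 154 in M1, from 1322 to 565 in M2, from 1519 to 780 for M2 against M0 in control and from 1130 to 451 with regorafenib. Genes passing for regorafenib across states numbered 0, but 333 without a filter, 296 with DESeq2, and 0 to 892 when 1 state was left out (892 without M1). For M2 against M0, 31 became 408 without a filter, where Slfn4 (adjusted p = 0.0342) and Slfn8 (0.0106) passed in edgeR, and 413 with DESeq2. With total counts, 3 instead of 5 interferon-stimulated genes were lower, and 2 instead of 1 IFN-γ-induced genes higher, with regorafenib in M2. By Pearson correlation, 6 of the 21 nearest-profile pairs were shared. None of the pairs of Slfn1, Slfn2 or Slfn4 was kept, which includes Slfn4 with Isg15. For Slfn9, Pask was kept but Timeless and Pttg1 were not. The fit across states compares regorafenib with control within each state, and the labels give no replicate numbers for any other pairing.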

Other observations

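Interferons act through receptors and their Janus kinases to induce their targets. Of 12 interferon receptor and signalling genes, 8 rose and 1 fell in M1 against M0 in the additive fit (edgeR adjusted p under 0.05), where 17.2% and 19.4% of all genes did. Ifngr1, a chain of the IFN-γ receptor, fell by 1.14 on the log2 scale (SE 0.33, edgeR adjusted p = 0.0415), from pair ratios of -0.56 in control, not called, and -1.79 with regorafenib, and it was called higher with regorafenib in M0 (3697 against 1634 counts). Jak2, the kinase bound to that receptor, rose by 4.34 (SE 0.22, edgeR adjusted p = 0.000282). With regorafenib, 2 of the 12 were called lower and 1 higher in M0, 0 were called in M1, and 2 were called higher in M2. For M0 the shares over all genes were 9.59% lower and 7.81% higher. For M1 they were 2.3% lower and 1.17% higher, and for M2 3.83% lower and 5.03% higher. The regorafenib counts of these short lists are to be read against those shares. Of 10 IFN-γ-induced genes, 10 were called higher in M1 against M0 control (median log2 ratio 6.55), where 16.1% of all genes were. With regorafenib 3 of the 10 were lower and 1 higher in M0, 0 were called in M1, and 1 was higher in M2. Of 8 LPS-induced NF-kB targets, 8 were called higher in M1 against M0 control (median 10.18). With regorafenib 2 of the 8 were lower in M0, 1 was higher in M1 and 0 were called in M2.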
